A study of Mus musculus with 6 samples.

Results

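Complement is a cascade of plasma and cell-surface proteins that marks microbes and dying cells for uptake and calls in leukocytes. Macrophages make several of its components themselves and carry receptors for its cleavage products. The genes described here are complement components and receptors chosen by symbol from the platform annotation of the array: the C1q chains C1qa, C1qb and C1qc, the components C3 and C4b, the alternative-pathway genes Cfb and Cfp, and the anaphylatoxin receptors C3ar1 and C5ar1. Of these 9 genes, 8 matched a row, out of 25206 features in all, of which 23185 carried a symbol. The annotation used here names no feature C3, so C3 was not analysed here. The rule used symbols and no measured value, but the genes were put together with earlier results of these data known, so the p-values, adjusted over all features and not over the members, are not independent of that choice.

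The cells were peritoneal macrophages that thioglycollate broth had drawn into the abdominal cavity of mice, harvested 4 days after an intraperitoneal injection of 1 mL of a 4% solution. One group came from 3 Tet2-/- mice and the other from 3 wild-type littermates, both on the C57BL/6J background, with no age given in the labels. Tet2 is an enzyme that oxidises 5-methylcytosine in DNA. Every culture, in both genotypes, had received 10 ng/ml lipopolysaccharide, the toll-like receptor 4 ligand, and 2 ng/ml interferon gamma for 10 h in medium with 10% serum, so all values describe the stimulated state. The genotype was of the whole animal by its label, with no Cre driver named, and each culture was hybridised to 1 whole-transcript array.

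The complement pathways differ in how they start. C1q, built from its A, B and C chains, binds antibody complexes and dying cells and starts the classical pathway through the proteases C1r and C1s, which cleave C4 and C2. Factor B, encoded by Cfb, supplies the protease of the alternative pathway, and properdin, encoded by Cfp, holds that protease complex together. C3a and C5a, the small fragments released on the way, signal through C3ar1 and C5ar1, and surface-bound C3 fragments are taken up through integrin and immunoglobulin-type receptors. C1q chains, Cfb and properdin are well-known products of macrophages, and in many cells Cfb and C4 are induced by interferon gamma.

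The Tet2 feature had log2 levels of 5.55, 5.25 and 5.75 in the arrays labelled Tet2-deficient and 5.40, 5.07 and 5.10 in the wild-type arrays (log2 change 0.32 ± 0.16, limma adjusted p = 0.365). The feature was not lower where the label says the gene is lost, and the position of its probes and of the deletion is not given in the sources used here, so every direction below rests on the labels. Of the general macrophage markers 6 of 8 were measured, with mean log2 levels of 9.90 to 9.91 in wild-type arrays and 9.99 to 10.16 in arrays labelled Tet2-deficient. Among them Cd68, a lysosomal glycoprotein of macrophages, had 10.69, 10.66 and 10.64 in the wild-type and 10.73, 10.63 and 10.65 in the other group. The other measured markers were less alike between the groups. The log2 change was 0.97 ± 0.13 for Cd14 (limma adjusted p = 0.0152) and 0.58 ± 0.11 for Csf1r (0.0543). It was -0.51 ± 0.19 for Fcgr1 (0.230), 0.15 ± 0.11 for Adgre1 (0.580) and -0.10 ± 0.12 for Mertk (0.746).

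The upstream sequences shown here belong to the pair of complement genes past the threshold in the whole list, C5ar1 and Itgam, to C3ar1, which encodes the other anaphylatoxin receptor, and to C1qb and C1qc, which lie next to each other in the C1q cluster. They are the 250 bases before each RefSeq start (GRCm38.p6), printed 5′ to 3′ on the gene's strand, with motif matches in capitals. The C5ar1 window is chr7:16259339-16259588 on the minus strand. That of Itgam is chr7:128062390-128062639 on the plus strand. The C3ar1 window is chr6:122856158-122856407 on the minus strand. C1qb and C1qc have chr4:136886201-136886450 and chr4:136892915-136893164, both on the minus strand. An upstream window was matched for 5 of the 8 measured members, among them Cfp, whose window is not printed. Itgam is not a member.
C5ar1: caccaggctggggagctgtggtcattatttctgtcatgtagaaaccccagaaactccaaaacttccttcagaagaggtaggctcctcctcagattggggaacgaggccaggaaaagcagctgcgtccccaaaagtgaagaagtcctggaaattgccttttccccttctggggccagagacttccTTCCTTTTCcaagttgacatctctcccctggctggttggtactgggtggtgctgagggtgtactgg
Itgam: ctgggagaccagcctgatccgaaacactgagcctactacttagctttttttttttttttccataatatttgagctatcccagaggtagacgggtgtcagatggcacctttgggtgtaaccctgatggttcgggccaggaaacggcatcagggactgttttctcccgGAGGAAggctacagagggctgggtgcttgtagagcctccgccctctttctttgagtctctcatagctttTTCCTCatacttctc
C3ar1: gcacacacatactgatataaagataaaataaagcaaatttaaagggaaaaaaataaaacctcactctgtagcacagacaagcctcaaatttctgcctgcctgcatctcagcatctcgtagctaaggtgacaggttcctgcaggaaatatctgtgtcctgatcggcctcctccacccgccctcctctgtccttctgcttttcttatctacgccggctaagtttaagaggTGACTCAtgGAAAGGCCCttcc
C1qb: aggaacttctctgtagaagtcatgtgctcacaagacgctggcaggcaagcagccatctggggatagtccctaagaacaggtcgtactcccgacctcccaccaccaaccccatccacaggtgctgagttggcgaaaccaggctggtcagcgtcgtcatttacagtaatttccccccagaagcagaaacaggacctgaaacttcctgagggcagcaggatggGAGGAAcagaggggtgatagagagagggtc
C1qc: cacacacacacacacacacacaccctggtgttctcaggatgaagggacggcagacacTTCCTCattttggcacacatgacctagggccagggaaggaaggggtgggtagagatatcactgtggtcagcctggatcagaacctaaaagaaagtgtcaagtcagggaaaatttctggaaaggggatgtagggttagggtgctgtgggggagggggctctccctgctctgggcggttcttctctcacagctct

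Short letter patterns of factors that act in stimulated macrophages were searched on both strands, and their shares are over 32851 upstream windows of the same length. TTCNNNGAA, a gamma-activated site, occurs in 7.02% of windows, GAAANNGAA, a shortened interferon-stimulated response element, in 7.13%, GGGNNTTTC, a shortened NF-kB site, in 3.72%, GAGGAA, the core bound by PU.1, in 23.3%, TGANTCA, an AP-1 site, in 6.75%, and TTGCNNAA, a C/EBP site, in 9.56%. The C5ar1 window held 1 match, to GAAANNGAA on the other strand. Itgam had 2 matches to GAGGAA, and C1qb and C1qc had 1 each. C3ar1 had 1 match to TGANTCA and 1 to GGGNNTTTC on the other strand, which do not overlap. CpG dinucleotides, the context in which most cytosine methylation lies, numbered 2 in the C5ar1 window, 2 in that of C1qc, 5 in that of C3ar1 and 6 in those of Itgam and C1qb, where the median of all windows was 6. The Cfp window, which is not printed, held 0 matches to the patterns and 2 CpG dinucleotides. These counts describe the letters of the windows, and no methylation was measured in this series.

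Among the members, C5ar1 rose in macrophages labelled Tet2-deficient, to 1.61 times the wild-type level, and the other 7 did not pass the threshold. The count of 1 of 8 stands beside 0.952% of all features past an adjusted p of 0.05 in either direction and 0.647% higher in the arrays labelled Tet2-deficient. C4b had the largest difference, at 2.59 times the wild-type level, but spread widely between arrays. The C1q chains, Cfb, Cfp and C3ar1 all lay between 0.788 and 1.22 times the wild-type level. With limma 0 of the 8 members fell. At an unadjusted p under 0.05, 2 (C5ar1 and C4b) were higher and 1 (C1qc) was lower, beside 1924 higher and 2111 lower of all 25206 features. Groups of 3 did not overlap for 3 of the 8 members (C5ar1 and C4b higher, C1qc lower), beside 22% of all features. The median log2 change was -0.0053 over the members and -0.040 over all features. Levels and changes are on the authors' log2 scale, errors of changes are standard errors of the limma fit with n = 3 arrays per group, and levels are not compared between genes, since each has its own probes.

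**Figure D1:**
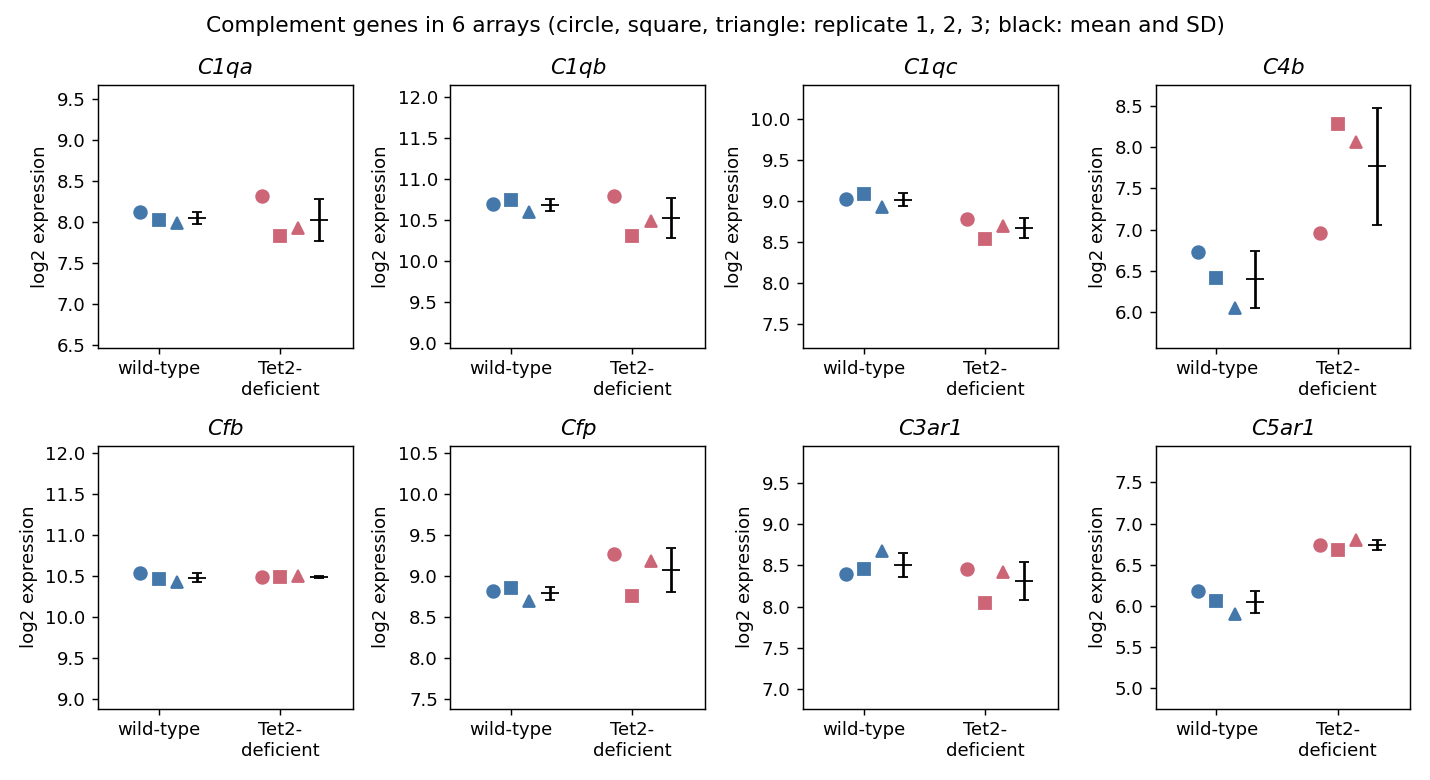
Log2 expression of the 8 measured complement genes in each array, with wild-type arrays in blue, arrays labelled Tet2-deficient in red, marker shape for the replicate number, and the group mean and SD in black (n = 3). All panels span the same log2 range. The groups are apart for C5ar1 and C4b (higher) and C1qc (lower), and C4b has the widest spread, with SDs of 0.34 and 0.71.

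The 3 C1q genes, which lie side by side on chromosome 4 with C1qc between C1qb and C1qa, did not pass the threshold, and their point estimates were not alike. C1qa, the A chain, had log2 levels of 8.12, 8.02 and 7.99 in the wild-type arrays and 8.31, 7.82 and 7.93 in those labelled Tet2-deficient. The groups overlapped, since Tet2-deficient replicate 1 held the highest and replicate 2 the lowest of the 6 values. The log2 change was -0.03 ± 0.15 (95% interval -0.36 to 0.31, adjusted p = 0.956), and its sign turned with arrays centred on their medians (0.040).

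C1qb, the B chain, had 10.69, 10.75 and 10.60 in the wild-type arrays and 10.79, 10.30 and 10.48 in the arrays labelled Tet2-deficient. Here too Tet2-deficient replicate 1 was the highest array and replicate 2 the lowest. For C1qb the log2 change was -0.16 ± 0.15 (95% interval -0.48 to 0.17, adjusted p = 0.66).

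C1qc, the C chain, had 9.03, 9.09 and 8.93 in the wild-type arrays and 8.78, 8.54 and 8.69 in the arrays labelled Tet2-deficient. All 3 values labelled Tet2-deficient lay below all 3 wild-type values. The log2 change was -0.34 ± 0.12 (95% interval -0.61 to -0.07, unadjusted p = 0.0184, limma adjusted p = 0.204), which is 0.788 times the wild-type level and not past the threshold. Its adjusted p was 0.0802 to 0.407 over 12 alternative settings, and the change was negative in each of them.

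The spread within groups was wider in the arrays labelled Tet2-deficient than in the wild-type arrays for each C1q gene, with SDs of 0.26 against 0.07 for C1qa, 0.25 against 0.08 for C1qb and 0.12 against 0.08 for C1qc. In all 3 genes replicate 1 was the highest and replicate 2 the lowest of the arrays labelled Tet2-deficient. Whether C1qa and C1qc changed unequally was tested on their difference within each array. C1qa minus C1qc was -0.91, -1.07 and -0.94 in the wild-type arrays and -0.47, -0.72 and -0.77 in those labelled Tet2-deficient, so the groups did not overlap. The difference of 0.32 between the groups had a two-sided exact permutation p = 0.1, the smallest that 3 arrays against 3 allow, and 0.15 after adjustment over the 3 pairs of members compared.

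C4b encodes complement C4, the protein whose larger fragment is laid down on surfaces by the classical and lectin pathways. Its log2 levels were 6.73, 6.41 and 6.04 in the wild-type arrays and 6.95, 8.28 and 8.07 in the arrays labelled Tet2-deficient. All 3 of the latter were higher, but replicate 1 was only just above wild-type replicate 1, while replicates 2 and 3 stood apart from all other arrays. The log2 change was 1.37 ± 0.32 (95% interval 0.66 to 2.09, limma adjusted p = 0.0784), not past the threshold. C4b did pass in 4 of 12 alternative fits, among them that without Tet2-deficient replicate 1 (log2 change 1.78, adjusted p = 0.0394), where 0.107% of all features passed. The other 3 were those limited to features above the median level (0.0384, with 6.71% of features called), weighted by array (0.0393, with 1.98% called) and using a prior with trend and robust fitting (0.0459, with 3.23% called). Over the 12 the adjusted p ran from 0.0384 to 0.257.

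Mice carry a near-identical copy of the gene, C4a, and probes that read both cannot be told from the files, so the C4b value is uncertain in that respect. The feature named C4a had 1.81, 1.67 and 1.90 in the wild-type arrays and 1.90, 1.85 and 1.85 in the arrays labelled Tet2-deficient (log2 change 0.07 ± 0.12, adjusted p = 0.824). Its mean level was low, at percentile 13.4 of all features, and whether the C4b feature also reads C4a was not tested.

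For Cfb the difference between the groups was bounded narrowly. Its log2 levels were 10.54, 10.46 and 10.43 in the wild-type arrays and 10.49, 10.48 and 10.51 in the arrays labelled Tet2-deficient, and the latter all lay inside the wild-type range. Cfb changed by 0.02 ± 0.11 on the log2 scale, with a 95% interval of -0.23 to 0.26 (adjusted p = 0.966). C2, its immediate neighbour on chromosome 17 and the corresponding protease of the classical pathway, had a log2 change of 0.01 ± 0.13 (95% interval -0.28 to 0.31, adjusted p = 0.973). Its levels were 3.69, 3.50 and 3.48 in the wild-type and 3.63, 3.69 and 3.39 in the arrays labelled Tet2-deficient.

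Cfp, the gene of properdin, had 8.82, 8.86 and 8.70 in the wild-type arrays and 9.27, 8.76 and 9.19 in the arrays labelled Tet2-deficient. Replicates 1 and 3 labelled Tet2-deficient were above all wild-type arrays and replicate 2 was within their range. This gave a log2 change of 0.28 ± 0.15 (95% interval -0.06 to 0.63, adjusted p = 0.409). With 1 array left out the change ran from 0.19 to 0.44 (adjusted p 0.153 to 0.687), the largest without Tet2-deficient replicate 2. Cfb minus Cfp within an array was 1.72, 1.61 and 1.73 in the wild-type arrays and 1.22, 1.72 and 1.32 in the others, a difference of -0.27 between the groups (two-sided exact permutation p = 0.2, adjusted p = 0.2 over the 3 pairs).

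The anaphylatoxin receptors, both coupled to G proteins, stood on opposite sides of 0. C5ar1, the receptor of C5a, a strong attractant and activator of phagocytes, had log2 levels of 6.17, 6.06 and 5.90 in the wild-type arrays and 6.73, 6.68 and 6.80 in the arrays labelled Tet2-deficient. Every array labelled Tet2-deficient was above every wild-type array, and the SDs were 0.14 in the wild-type and 0.06 in the other group. The log2 change was 0.69 ± 0.12 (95% interval 0.42 to 0.96, 1.61-fold, limma adjusted p = 0.0377). The call stood near the threshold and ended whichever of the 6 arrays was left out. The adjusted p was 0.0549, 0.0986 and 0.157 without wild-type replicate 1, 2 or 3 and 0.12, 0.0707 and 0.152 without Tet2-deficient replicate 1, 2 or 3, with log2 changes of 0.62 to 0.76. C5ar2, the second C5a receptor gene and the neighbour of C5ar1 on chromosome 7, had 4.00, 3.77 and 3.79 in the wild-type arrays and 3.78, 3.81 and 3.72 in the others (log2 change -0.09 ± 0.12, 95% interval -0.35 to 0.18, adjusted p = 0.777).

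C3ar1, the receptor of C3a, had 8.40, 8.46 and 8.67 in the wild-type arrays and 8.46, 8.04 and 8.42 in the arrays labelled Tet2-deficient. The groups overlapped, and replicate 2 labelled Tet2-deficient was the lowest array. For C3ar1 the log2 change was -0.20 ± 0.15 (95% interval -0.53 to 0.13, adjusted p = 0.568), and -0.07 without that array. C5ar1 minus C3ar1 within an array was -2.22, -2.39 and -2.77 in the wild-type arrays and -1.72, -1.37 and -1.62 in the others. The groups did not overlap in this difference, which was 0.89 higher in the arrays labelled Tet2-deficient (two-sided exact permutation p = 0.1, adjusted p = 0.15 over the 3 pairs), at the smallest p the design allows.

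**Figure D2:**
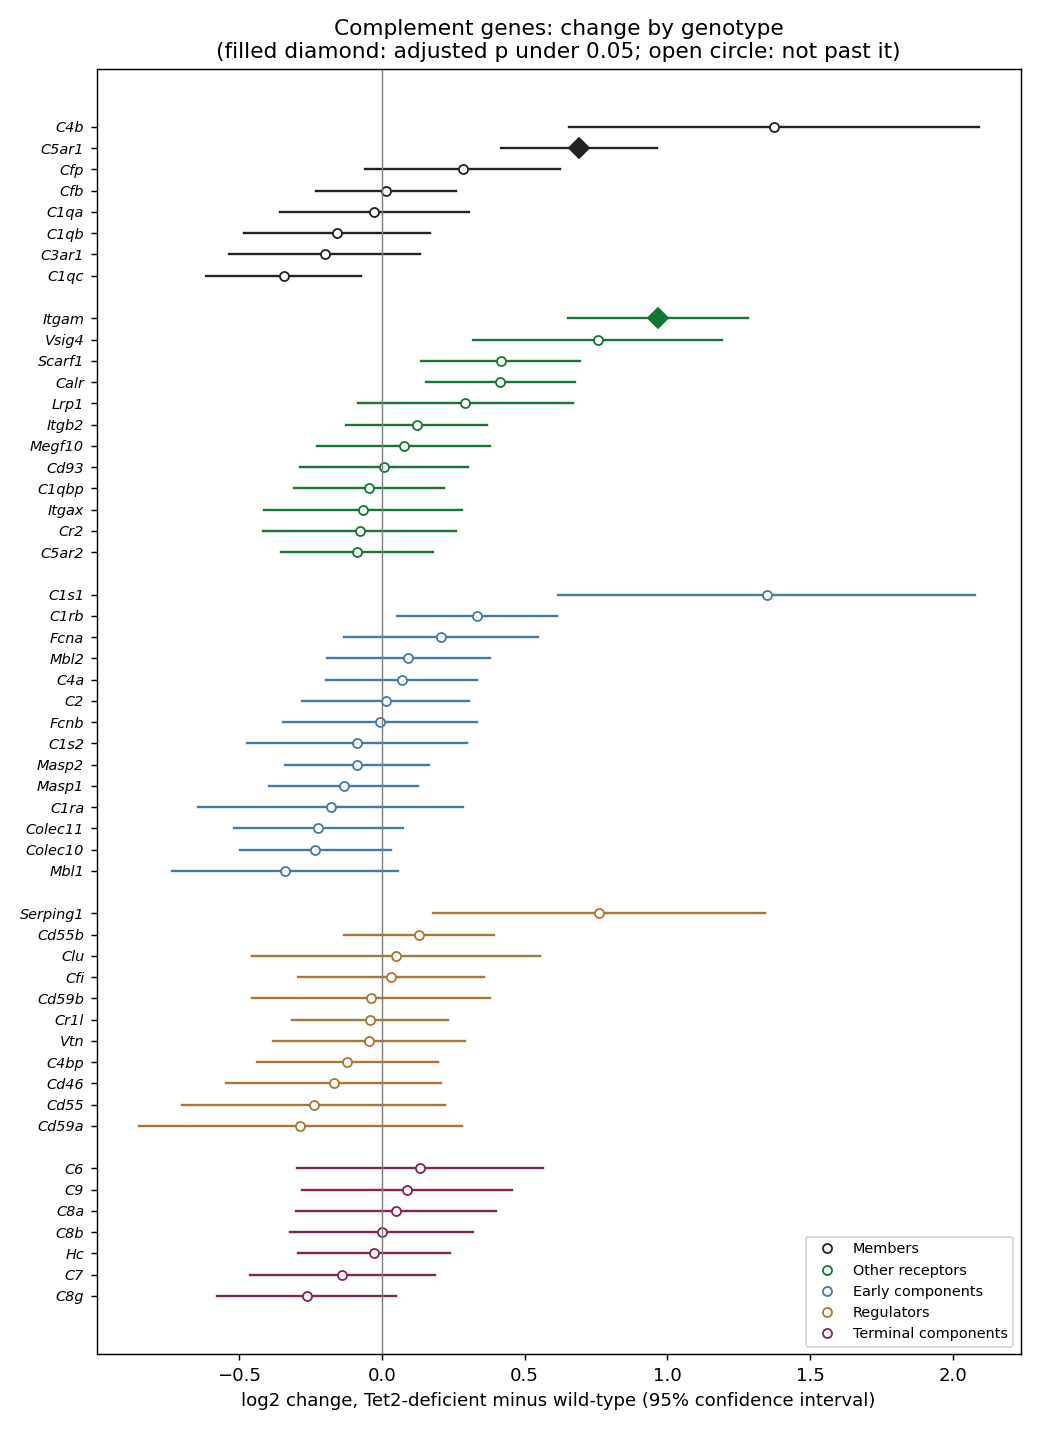
Log2 change, Tet2-deficient minus wild-type, with the 95% interval of the limma fit for the 8 members and 44 other complement genes, grouped by role (n = 3 arrays per group). Filled diamonds mark the genes past an adjusted p of 0.05, C5ar1 (0.69) and Itgam (0.97). C4b (1.37) and C1s1 (1.35) lie farther right with wider intervals.

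Of the other genes of the pathway, 44 of 48 listed were measured, 1 rose, 0 fell with limma and 43 did not pass. Over all features 0.647% were called higher and 0.952% in either direction. At an unadjusted p under 0.05, 7 were higher and 0 were lower, beside 16% of all features in either direction. Of all 25206 features, 1924 were higher and 2111 lower at that p. Their median log2 change was -0.0033, with 21 positive and 23 negative.

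The gene that rose was Itgam, the alpha chain of complement receptor 3, which takes up particles coated with fragments of C3. It had log2 levels of 9.24, 9.14 and 8.87 in the wild-type arrays and 10.10, 10.17 and 9.90 in the arrays labelled Tet2-deficient. All 3 of the latter were above all wild-type arrays, and the log2 change was 0.97 ± 0.14 (1.96-fold, limma adjusted p = 0.0211). The call held without wild-type replicate 1 (0.0298) and ended without any other single array: the adjusted p was 0.0543 and 0.0832 without wild-type replicate 2 or 3 and 0.0941, 0.0578 and 0.0731 without Tet2-deficient replicate 1, 2 or 3. Itgb2, the beta chain that pairs with Itgam, had 11.13, 11.05 and 11.06 in the wild-type arrays and 11.24, 11.22 and 11.15 in the others (log2 change 0.12 ± 0.11, adjusted p = 0.648). Itgax, the alpha chain of complement receptor 4, had a log2 change of -0.07 ± 0.15 (adjusted p = 0.877).

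Vsig4, an immunoglobulin-type receptor of C3 fragments on tissue-resident macrophages, had 6.74, 6.18 and 5.98 in the wild-type arrays and 7.04, 6.89 and 7.23 in the arrays labelled Tet2-deficient. The groups did not overlap, and the log2 change was 0.76 ± 0.19 (adjusted p = 0.103). It passed without wild-type replicate 1 and when only features above the median level were fitted. Calreticulin, Calr, a chaperone that also acts as a partner of C1q in the uptake of dying cells, had 9.44, 9.40 and 9.49 against 9.89, 9.95 and 9.74 (log2 change 0.42 ± 0.12, adjusted p = 0.123), and passed with the trended prior. Of the 12 other receptor genes the groups were apart for 5, all higher in the arrays labelled Tet2-deficient, beside 9.74% of all features in that direction.

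Among 14 measured early components, 0 passed the threshold, and 2 were higher at an unadjusted p under 0.05, beside 1924 of all 25206 features. C1s1, a protease of the C1 complex, had log2 levels of 3.44, 2.73 and 2.91 in the wild-type arrays and 3.99, 5.20 and 3.93 in the arrays labelled Tet2-deficient. Replicate 2 of the latter stood above all others, and the log2 change was 1.35 ± 0.32 (adjusted p = 0.0864). It passed with the trended prior and among features above the median level. Its wild-type mean of 3.03 lay below that median of 3.55. C1s1 thus entered the latter fit only through the arrays labelled Tet2-deficient, and its pass there is no independent support. C1rb, a copy of the C1r protease gene, had a log2 change of 0.33 ± 0.12 (adjusted p = 0.229).

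Among 11 measured regulators, 0 passed, and Serping1, the C1 inhibitor, was the 1 gene with an unadjusted p under 0.05. It had 4.61, 4.36 and 3.87 in the wild-type arrays and 4.76, 5.61 and 4.75 in the arrays labelled Tet2-deficient (log2 change 0.76 ± 0.26, adjusted p = 0.192). Replicate 2 was again the highest. Cd55, a membrane protein that breaks up complement proteases, had -0.24 ± 0.20 (adjusted p = 0.629). Its mean log2 level was 1.83 in the wild-type arrays and 1.59 in the others, below the median of 3.55 over all features. Of 7 terminal components, which form the membrane attack pore, 0 passed and 0 had an unadjusted p under 0.05. Their mean log2 levels of 1.98 to 3.01 were also below that median, and dim features understate changes. The smallest p there belonged to C8g (log2 change -0.26 ± 0.14, adjusted p = 0.405) and C7 (-0.14 ± 0.14, adjusted p = 0.701).

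C4b, C1s1 and Serping1 are also made by fibroblasts and mesothelial cells. Of 11 markers of those cells 0 passed (1 at an unadjusted p under 0.05), and 7 had a positive and 4 a negative log2 change. Groups did not overlap for 1 of the 11, Dcn, beside 22% of all features in either direction. The mean log2 level of these markers was 3.85, 4.29 and 3.91 in the wild-type arrays and 4.20, 4.76 and 3.96 in the arrays labelled Tet2-deficient. Replicate 2 of the latter was thus the highest and replicate 3 within the wild-type range. The fibrillar collagen gene Col1a1 had 5.40, 5.96 and 5.09 against 5.58, 7.37 and 5.26, and Col1a2 had 4.28, 5.14 and 4.78 against 5.34, 6.62 and 4.66. Dcn, the matrix proteoglycan decorin, had 5.02, 5.12 and 4.71 against 6.18, 6.88 and 5.57 (log2 change 1.26 ± 0.28, adjusted p = 0.0715). The 4 with a negative change were Wt1, a transcription factor of mesothelium (-0.21), the keratins Krt8 (-0.17) and Krt19 (-0.15), and Lum (-0.03). In Tet2-deficient replicate 3 both collagen genes lay within their wild-type ranges and Dcn was 0.62 above its wild-type mean, while C4b was 1.68, C1s1 0.91 and Serping1 0.47 above theirs. Without Tet2-deficient replicate 2, C4b changed by 1.12 (adjusted p = 0.144). The part that such cells have in these values was not tested, and in these bulk cultures a different number of cells and a different amount of RNA per cell cannot be told apart.

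**Figure D3:**
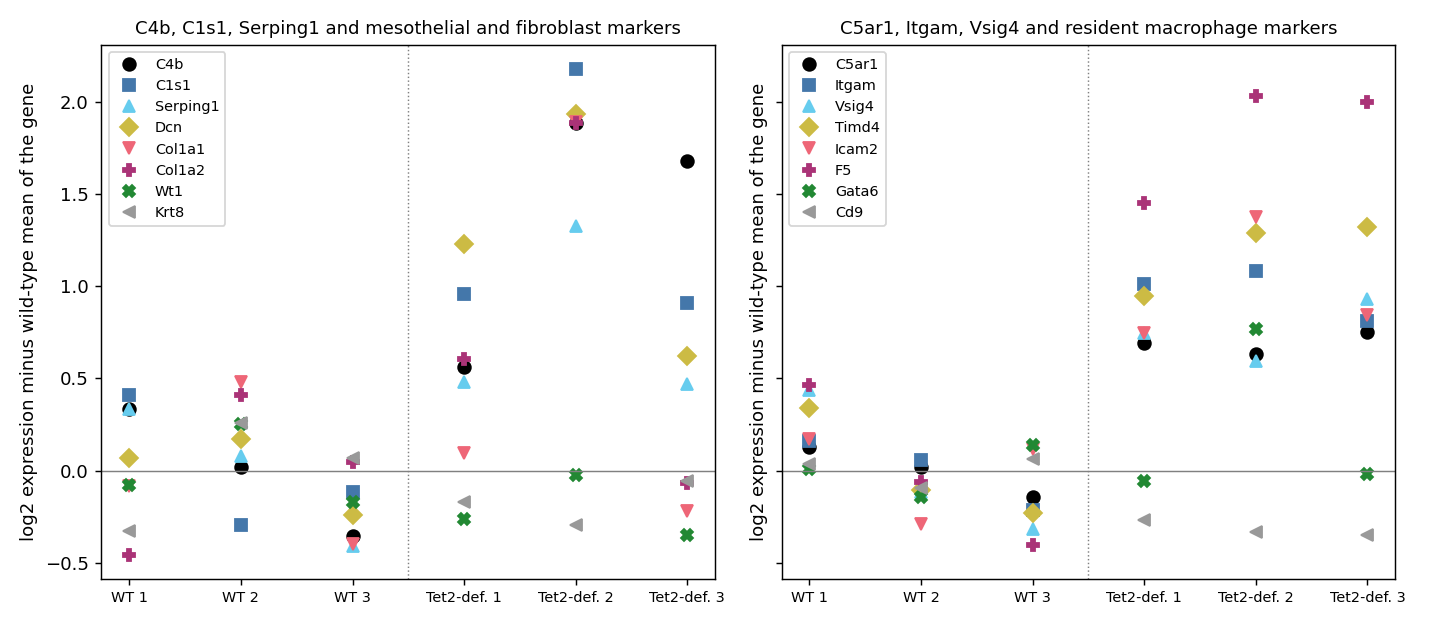
Log2 expression of each gene minus its wild-type mean, by array. On the left, C4b (1.88 and 1.68 in Tet2-deficient replicates 2 and 3), C1s1 and Serping1 with markers of mesothelium and fibroblasts, and on the right, C5ar1, Itgam and Vsig4 with markers of resident peritoneal macrophages. On the left the collagens and Dcn are highest in Tet2-deficient replicate 2, and Wt1 and Krt8 are not. On the right Timd4, Icam2 and F5 are high in all 3 arrays labelled Tet2-deficient, Cd9 is low in all 3 and Gata6 is high in replicate 2 alone. The 5 markers on each side were picked from lists of 11 and 10 after their values were seen.

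Markers of large resident peritoneal macrophages stood beside the receptor values. Of 10 markers 3 rose (Timd4, Prg4 and F5), beside 0.647% of all features. A positive change was seen in 9 of the 10, beside 10607 of all 25206 features. With limma 0 fell (1, the tetraspanin Cd9, was lower at an unadjusted p under 0.05). The mean log2 level of the 10 was 5.34 to 5.65 in the wild-type arrays and 6.01 to 6.45 in the arrays labelled Tet2-deficient. Timd4, a receptor for phosphatidylserine on dying cells, had 8.38, 7.94 and 7.82 against 8.99, 9.33 and 9.37 (log2 change 1.19 ± 0.17, adjusted p = 0.0219). Gata6, the transcription factor that defines these cells, had 3.66, 3.51 and 3.79 against 3.59, 4.42 and 3.63, with 1 array, Tet2-deficient replicate 2, above the rest (log2 change 0.23 ± 0.21, adjusted p = 0.657). Cd9 had 9.75, 9.62 and 9.78 against 9.45, 9.38 and 9.36. The part of these markers in the values of C5ar1, Itgam and Vsig4 was not tested.

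No gene of the other marker lists passed the threshold, apart from Cd14 on the general macrophage list (1 of 6). Those lists were monocytes (0 of 6, 1 at an unadjusted p under 0.05), neutrophils (0 of 10, 0), B cells (0 of 7, 0), T and NK cells (0 of 7, 1), dendritic cells (0 of 7, 0), and eosinophils and mast cells (0 of 8, 0). Mean log2 levels of the neutrophil list were 3.31 to 3.39 in the wild-type and 3.31 to 3.48 in the arrays labelled Tet2-deficient, and those of monocytes 5.67 to 5.91 and 5.71 to 6.20. The monocyte marker Ly6c2 had 7.01, 6.59 and 6.73 against 8.21, 7.40 and 7.74 (log2 change 1.01 ± 0.20, adjusted p = 0.0558). S100a8, a calcium-binding protein abundant in neutrophils, had 7.87, 7.96 and 7.38 against 7.67, 8.87 and 8.26. Ighm, the immunoglobulin heavy chain of B cells, ranged from 4.27 to 7.04, both in arrays labelled Tet2-deficient (replicates 2 and 1). Replicate 1 was also the highest and replicate 2 the lowest of that group for the C1q genes, Cfp and C3ar1. That order was not particular to Ighm. It also held for Ly6c2, Ccr7 and Fcgr1, and some genes of the B-cell list did not follow it. The part of B cells in the values of the C1q genes, Cfp and C3ar1 was not tested. The leading genes of the remaining lists were Ccr7 of mature dendritic cells (5.99, 5.23 and 5.31 against 6.43, 5.42 and 5.61), Siglecf of eosinophils (log2 change -0.02) and Klrb1c of NK cells (0.02).

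The genes whose 6 values, each centred on its own mean, were closest to those of C5ar1 were Ap2a2, a subunit of the clathrin adaptor, Il17ra, a receptor chain for interleukin 17, and Atrn, attractin. Their mean absolute distances from C5ar1 were 0.03, 0.04 and 0.05 on the log2 scale over 6 arrays, the smallest among 19709 genes compared. Ap2a2 had 6.62, 6.53 and 6.33 in the wild-type arrays and 7.13, 7.10 and 7.13 in the others, and Il17ra had 7.23, 7.11 and 6.86 against 7.77, 7.65 and 7.86. Of the 3, Atrn passed the threshold (log2 change 0.76 ± 0.12, adjusted p = 0.0264), and Ap2a2 and Il17ra, with adjusted p of 0.0515 and 0.0527, lay just above it. The 3 were picked for likeness to C5ar1 over all 6 arrays, so changes near that of C5ar1 follow from the choice and are no independent support.

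**Figure D4:**
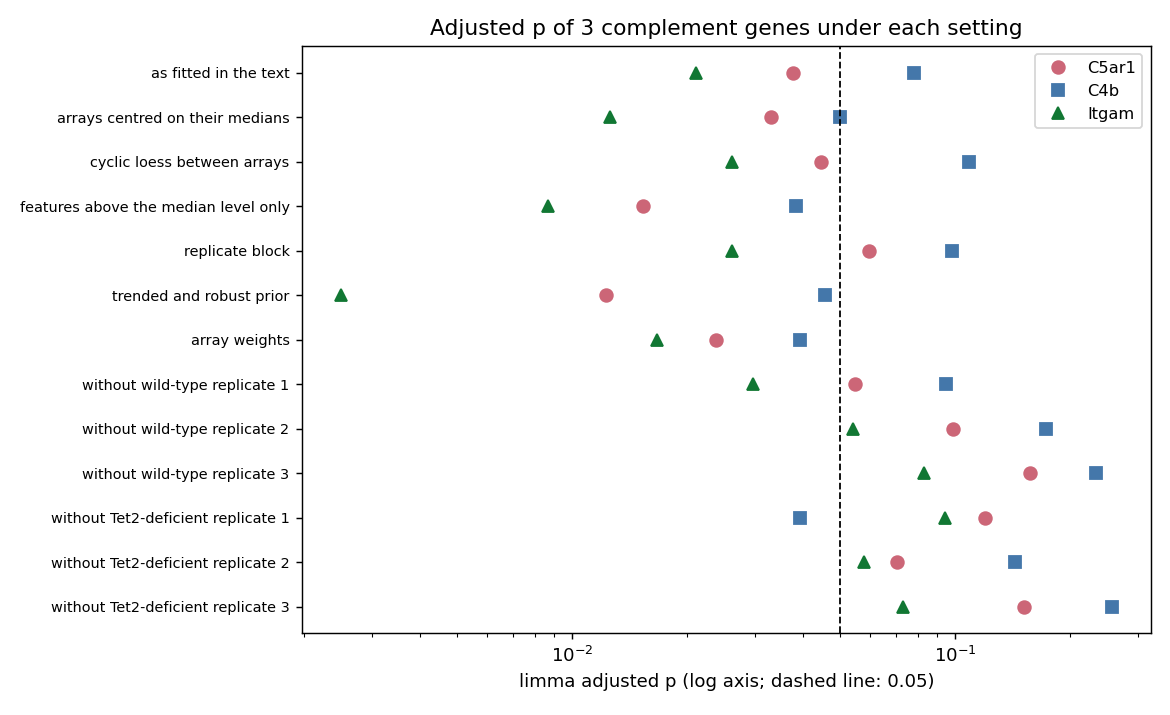
Limma adjusted p (log axis) of C5ar1, C4b and Itgam as fitted in the text and under 12 alternative settings, with the threshold of 0.05 as a dashed line. C5ar1 lies left of the line in 5 alternatives and in no fit that leaves out an array, C4b in 4 and Itgam in 7.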

How the data were processed

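The deposited values are log2 expression that the authors made with RMA in affy 1.36.1, per the submitters' processing notes. RMA draws all arrays to nearly 1 distribution (sorted values differ by at most 0.27), so it hides a shift shared by all genes, and dim features understate changes. The array model, its probe positions and its genome build: not given in the sources used here. Values ran from 0.35 to 12.7, with a median per array of 3.47 to 3.66. Arrays have no depth, and their number limits the precision. At least 99.66% of features differed in every pair of arrays. The labels call the 3 arrays of a group biological replicates.

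Features were named through the platform annotation, in which 23185 had 1 symbol, 0 had several and 2021 had none. The genotypes were compared in limma 3.58.1 (lmFit, eBayes; R 4.3.3), two-sided, over all 25206 features with Benjamini-Hochberg adjustment and a threshold of 0.05. Of these, 240 passed, 163 higher and 77 lower (67.9% higher; 78.8% with arrays centred on their medians and 59.6% with cyclic loess). Differences between members within arrays used exact permutation tests (scipy 1.17.1). A further planned pair held C3 and was not run. In simulated data drawn from the means and SDs of all 25206 features, 72% of genes changed by 1 and 98% of those changed by 2 on the log2 scale were called.

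Genes were named by rule: the members, Tet2, complement genes beside a member, in each wider complement list those past the threshold and the next 2 by p (the first 2 where none passed), the gene of highest mean level in each marker list, and the 3 nearest to each called member. C4a, Itgb2, Itgax, Dcn, Col1a2, Timd4, Prg4, F5, Icam2, Gata6, Wt1, Krt8, Krt19, Lum, Cd14, Csf1r, Fcgr1, Adgre1 and Mertk were added after their values were seen. The members, lists and letter patterns were chosen with earlier results of these data known. Alternatives were centring of arrays on their medians, cyclic loess, a fit of features above the median level, a replicate block, weights per array, a prior with trend and robust fitting, a threshold of 0.1, and fits without 1 array. Upstream windows came from RefSeq (GRCm38.p6).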

Additional observations from a re-analysis of the deposited data

How the results depend on the processing

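C1qb, C1qc, C4b, Cfp, C3ar1, C5ar1 and Itgam kept their direction under all 12 alternative fits. C1qa, near 0, turned to 0.040 with arrays centred on their medians, and ran from -0.17 to 0.072 with 1 array left out (above 0 when Tet2-deficient replicate 2 or 3 or wild-type replicate 1 was the one omitted). Cfb turned to -0.0011 with cyclic loess and ran from -0.0073 (without wild-type replicate 3) to 0.046 with 1 array left out.

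The 240 features past the threshold became 846 among the features above the median level, 814 under the trended, robust prior, 498 with array weights, 791 at a threshold of 0.1 and 11 to 155 with 1 array left out. Members that rose, 1 as fitted, numbered 2 (C4b and C5ar1) above the median level, under that prior, with array weights and at 0.1. With 1 array left out they numbered 0 to 1, the 1 being C4b without Tet2-deficient replicate 1. Other complement genes that rose, 1 as fitted, numbered 3 above the median level (C1s1, Itgam and Vsig4) and under that prior (C1s1, Calr and Itgam), 2 at 0.1 and 0 to 2 with 1 array left out. C1s1 was above the median level only through the arrays labelled Tet2-deficient. In all these settings 0 members and 0 other complement genes fell. The differences within arrays kept their direction with each array left out. Leaving out dim features shortened the list over which p is adjusted and also changed the standard errors of the fit. The cause of the changes in these counts was not tested.

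With the replicate block, 0 members rose (C5ar1 adjusted p = 0.0597) and 230 features passed. The labels do not say that a number marks a litter or day, and deviations of same-numbered arrays correlated at 0.0838, 0.191 and 0.0248. Whether same-numbered arrays form pairs cannot be told from these weak correlations. For numbers 1 and 2, but not 3, the Tet2-deficient array correlated best with the wild-type array of its own number.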
